A study of Homo sapiens with 14 samples.

Results

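28S rRNA is the large RNA of the human 60S ribosomal subunit, and it was 1 row of the icSHAPE and icLASER profiles of K562 cells, an established human leukemia line. The row was taken by its name, 28S, and was 1 of 12256 transcripts in the icSHAPE in vitro profile, 1 of 16295 in icSHAPE in vivo, 1 of 15853 in icLASER in vitro and 1 of 16648 in icLASER in vivo. The samples were 14 libraries of K562 RNA, all of them enriched for poly(A) RNA. For icSHAPE there were 3 in vivo and 2 in vitro libraries, treated with 100 mM NAI-N3 for 5 min, and 3 DMSO controls. For icLASER there were 2 in vivo and 2 in vitro libraries, treated with NAz-N3 under UV light for 10 min, and 2 controls without UV. In vivo means that living cells were treated, and in vitro means that RNA was extracted and refolded before treatment.

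NAI-N3 acylates the 2′-hydroxyl of flexible nucleotides, so icSHAPE reads flexibility. NAz-N3 is activated by light and reacts at the C8 position of purines that solvent can reach, so icLASER reads accessibility of the base. Each nucleotide carried a score that runs from 0 to 1 and compares the reagent's libraries with their control, and a nucleotide with a score of at least 0.5 is called reactive here. The replicates and controls were pooled into 1 profile for each reagent and condition, 4 in all. The labels give each reagent 1 set of controls, with no split by condition. No difference below therefore has a replicate check or a p-value, and the depth behind each score is unknown. The RPKM of 28S rRNA, its read density, was 11084 in vitro and 2299 in vivo with icSHAPE, and 14425 in vitro and 4419 in vivo with icLASER. The in vitro value was 4.82 times the in vivo value for icSHAPE and 3.26 times for icLASER, and the part of this in the score differences was not tested. 28S rRNA lacks the poly(A) tail that the selection used.

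28S rRNA folds into 6 domains, numbered I to VI from the 5′ end. Its catalytic and factor-binding parts are shared with bacteria. In humans the core is interrupted by expansion segments, long helices rich in G and C that project from the surface of the subunit and are short or absent in bacteria. The peptidyl transferase centre in domain V joins amino acids, with the A loop and P loop holding the ends of the tRNAs. The sarcin-ricin loop in domain VI, the target of the toxins it is named for, and the GTPase-associated centre in domain II serve translation factors. Helix 69 in domain IV forms a bridge to the small subunit.

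The sequence used was RNA28SN5, 5070 nucleotides long, at chrUn_GL000220v1:113348-118417 on the plus strand of GRCh38, a gene with 1 rRNA product and no coding sequence. Of 5 RefSeq copies of 5054 to 5077 nucleotides, 1 had the length of the profiles' row. The first 6 and the last 30 nucleotides had no score, which left 5034. Domain I spanned nucleotides 1 to 1309, domain II 1310 to 2390, domain III 2391 to 2850, domain IV 2851 to 3881, domain V 3882 to 4561 and domain VI 4562 to 5070. The 7 expansion segments described were ES7 (436 to 1309), ES9 (1403 to 1495), ES15 (2097 to 2274), ES27 (2906 to 3598), ES30 (3971 to 4042), ES31 (4059 to 4166) and ES39 (4711 to 4956). They held 2264 nucleotides with 84.5% G and C. The remainder of 2770 scored nucleotides, with 57.3% G and C, held the conserved core and the smaller expansion segments. The edges were set by short sequence landmarks and are approximate.

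The functional elements are printed here because their reactive nucleotides are described below. Capitals mark nucleotides with a score of at least 0.5 in any of the 4 profiles, 5′ to 3′, on the plus strand of GRCh38.
Ring strand 1 of the peptidyl transferase centre, chrUn_GL000220v1:117242-117260: gcggggAAAGaaGacccUG
Ring strand 2, chrUn_GL000220v1:117735-117753: acaggGAuAacuggcuugu
Ring strand 3, chrUn_GL000220v1:117787-117806: GAuccUucGauGucggcucu
Ring strand 4, chrUn_GL000220v1:117871-117898: gcugGGUUuaGaccGucgugaGacaggu
P loop, chrUn_GL000220v1:117541-117549: uggggcgGU
A loop, chrUn_GL000220v1:117844-117852: uuguucacc
Sarcin-ricin loop, chrUn_GL000220v1:117945-117963: caGUacgagaggaaccgca
Helix 69, chrUn_GL000220v1:117097-117121: ggcgggaguAacuauGacucucUUa

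The expansion segments had higher scores in cells than in refolded RNA with both reagents, and the rest of the molecule had lower ones. With icSHAPE the expansion segments had a mean score of 0.105 in vitro and 0.185 in vivo, while the remainder had 0.206 in vitro and 0.15 in vivo. The mean icLASER score of the expansion segments was 0.166 in vitro and 0.241 in vivo, while the remainder had 0.151 in vitro and 0.0681 in vivo. Subtracting in vitro from in vivo thus gave a difference of 0.0791 with icSHAPE and 0.0744 with icLASER in the expansion segments, against -0.0563 and -0.0832 in the remainder. The order of the 2 parts turned round with icSHAPE: the expansion segments were below the remainder by a difference of -0.101 in vitro and above it by 0.0345 in vivo. With icLASER they were above it in both conditions, by 0.0152 in vitro and 0.173 in vivo.

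**Figure D1:**
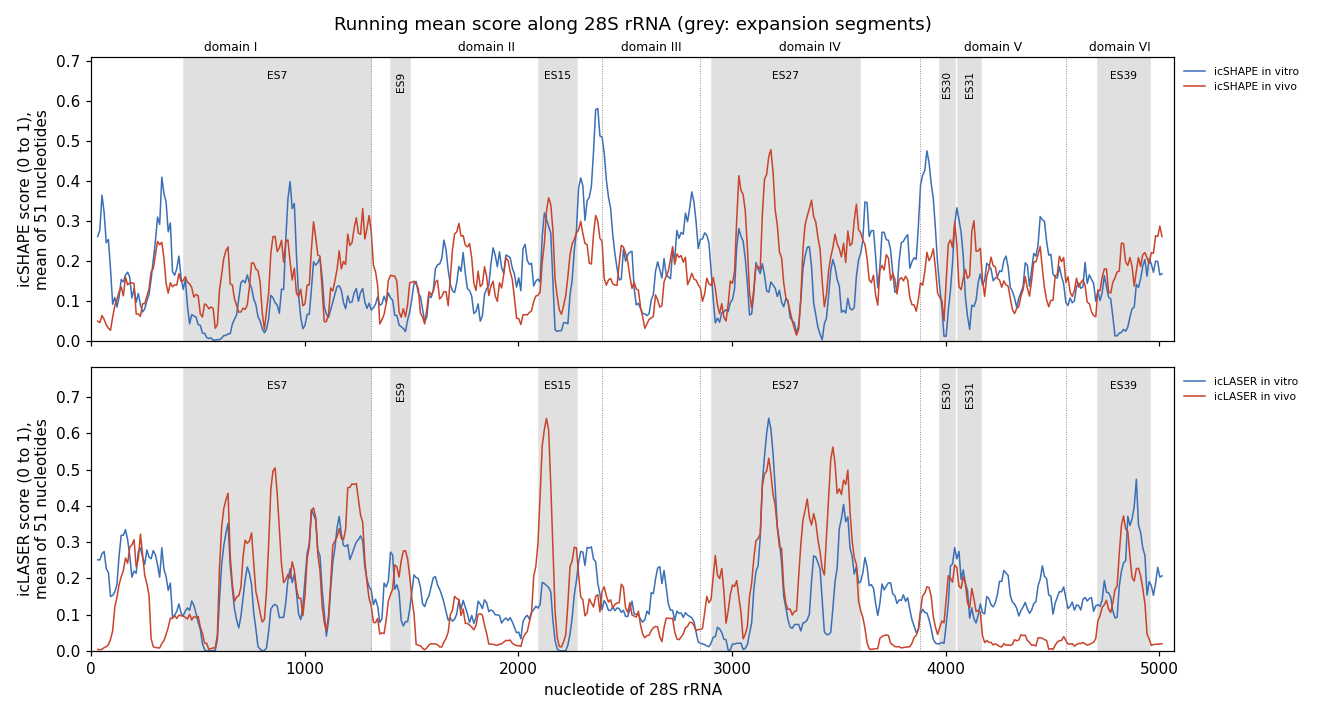
The running mean of the score (y axis, 0 to 1, over 51 nucleotides) is plotted against the nucleotide of 28S rRNA (x axis) for icSHAPE (top) and icLASER (bottom), with the in vitro profile in blue and the in vivo profile in red. Grey bands are the 7 expansion segments and dotted lines the ends of the domains; between the bands the red icLASER line lies near 0 along most of domains IV, V and VI.

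The reactive nucleotides moved with the means. The whole molecule had 573 reactive nucleotides with icSHAPE in vitro (11.4%), 513 with icSHAPE in vivo (10.2%), 532 with icLASER in vitro (10.6%) and 473 with icLASER in vivo (9.40%). These shares were near those over all scored transcripts, which were 11.0%, 11.9%, 11.0% and 11.1% in the same order. The expansion segments, which are 45.0% of the scored nucleotides, held 27.9% of the reactive ones with icSHAPE in vitro and 57.5% in vivo. They held 53.0% with icLASER in vitro and 83.9% in vivo. In the remainder, 9.03% of nucleotides were reactive with icLASER in vitro and 2.74% in vivo.

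A nucleotide was called higher or lower in cells where its score differed by at least 0.25. With icSHAPE, 469 nucleotides were higher (9.32%, against 12.4% over all transcripts) and 504 were lower (10.0%, against 9.10%). With icLASER, 430 were higher (8.54%, against 10.0%) and 514 were lower (10.2%, against 9.70%). With icSHAPE fewer nucleotides were thus higher than over all transcripts, and the shares of the other 3 calls were nearer to those elsewhere. Of the 469 icSHAPE nucleotides higher in cells 312 lay in expansion segments, and of the 504 lower ones 422 lay in the remainder. Of the 430 icLASER nucleotides higher in cells 351 lay in expansion segments, and of the 514 lower ones 386 lay in the remainder. Both reagents called 110 nucleotides higher, 90 of them in expansion segments, and 167 lower, 147 of them in the remainder. They went opposite ways at 45 nucleotides that were higher with icSHAPE and lower with icLASER, and at 31 that went the other way. The shares of such joint calls over all transcripts, and the overlap that unrelated calls would give, were not computed. These joint counts are therefore only a description.

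How the score is scaled limits what these differences can show. In each profile 5.01% to 5.05% of the scored nucleotides of 28S rRNA stood at 1, and in 18S rRNA 5.02% did so in all 4, so the scale was set within each transcript. A score is then relative to the rest of the molecule, and a gain in one part cannot be told apart from a loss in another. The mean over 28S rRNA was 0.161 with icSHAPE in vitro, 0.166 with icSHAPE in vivo, 0.158 with icLASER in vitro and 0.146 with icLASER in vivo, and says nothing of a change common to all nucleotides.

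The 7 expansion segments went the same way with icSHAPE, and 6 of the 7 with icLASER. ES27, a pair of mobile arms in domain IV near the exit of the peptide tunnel, had a mean icSHAPE score of 0.116 in vitro and 0.216 in vivo, and a mean icLASER score of 0.178 and 0.283. ES7, the largest, in domain I, had 0.0976 and 0.162 with icSHAPE and 0.166 and 0.229 with icLASER. ES15, in domain II, had the largest icLASER difference of the 7, with a mean of 0.0818 in vitro and 0.276 in vivo, and 0.140 and 0.197 with icSHAPE. ES9, also in domain II, had 0.126 and 0.273 with icLASER and 0.0449 and 0.116 with icSHAPE. The 2 segments of domain V differed little with icLASER. ES30, in the L1 stalk, which moves with the departing tRNA, had 0.122 in vitro and 0.161 in vivo, and ES31 had 0.147 and 0.162. With icSHAPE they had 0.0580 and 0.181 for ES30 and 0.143 and 0.220 for ES31, so ES30 had the largest icSHAPE difference, 0.123. ES39, in domain VI, was the exception: its icSHAPE mean was 0.0993 in vitro and 0.181 in vivo, but its icLASER mean was 0.235 in vitro and 0.187 in vivo.

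Outside the expansion segments the 6 domains were alike in direction. The icLASER mean of the remainder was 0.224 in vitro and 0.113 in vivo in domain I, 0.144 and 0.0715 in domain II, and 0.119 and 0.0867 in domain III. It was 0.130 and 0.0463 in domain IV, 0.139 and 0.0442 in domain V, and 0.164 and 0.0198 in domain VI. Domain VI, which holds the sarcin-ricin loop, had no nucleotide of its 233 in the remainder reactive with icLASER in vivo, against 9.87% in vitro. With icSHAPE the remainder was lower in vivo in domains I to V, with differences from -0.0311 in domain II to -0.0885 in domain IV. In domain VI it was 0.153 in vitro and 0.157 in vivo, so that there the reagents parted.

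As wholes, all domains but III mixed both kinds of sequence, and their means differed less. Domain IV, with ES27, was higher in vivo with both reagents, by a mean difference of 0.0381 with icSHAPE and 0.0433 with icLASER. Domain III, with none of the 7 segments, was lower with both, with a difference of -0.0700 and -0.0324. Domain V was lower too, with -0.0273 and -0.0634. Domain I had 0.0171 and 0.00550, and domain II -0.00790 and -0.00977, which are the smallest. Domain VI had 0.0438 with icSHAPE and -0.0943 with icLASER. Giving A, C, G and U equal weight turned the icSHAPE difference of domain IV to -0.00278 and that of domain I to -0.0161, so the icSHAPE order of whole domains rests in part on base composition.

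The same pattern was seen at a finer scale. In windows of 50 nucleotides that did not overlap, 35 of 39 in expansion segments were higher in vivo with icSHAPE and 32 of 39 with icLASER. In the remainder, 15 of 48 were higher with icSHAPE and 8 of 48 with icLASER. The mean difference per window was 0.0805 ± 0.0923 (SD over 39 windows) in expansion segments and -0.0569 ± 0.0916 (SD over 48 windows) in the remainder with icSHAPE. With icLASER it was 0.0777 ± 0.126 and -0.0876 ± 0.0834. The SDs are between windows of 1 molecule, which are not replicates, and the 2 sets of windows overlapped with both reagents. In vivo, the icLASER mean was under 0.05 in 28 of the 48 windows of the remainder, and in none of them in vitro.

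Within the remainder the icLASER windows highest in cells lay in several domains. The highest in vivo mean, 0.324, was at nucleotides 207 to 256, and that of the window just before it, 157 to 206, was 0.271. Their in vitro means were 0.284 and 0.247. Both lie in domain I, 5′ of ES7, and had 78% and 72% G and C. The window at 2457 to 2506 in domain III came next, with 0.184 in vivo and 0.104 in vitro. It was followed by 107 to 156 in domain I, with 0.166 in vivo and 0.249 in vitro, and 3907 to 3956 in domain V, with 0.149 and 0.0614.

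High G and C content and expansion segment nearly coincide along 28S rRNA, so the 2 can hardly be told apart. Of 39 windows in expansion segments 34 had at least 80% G and C, while 1 of 48 in the remainder did. Between 70% and 80%, the range that both share, the mean difference was 0.00711 with icSHAPE in 5 windows of expansion segments and -0.00942 in 8 of the remainder. With icLASER these were -0.0600 and -0.0540. With icSHAPE 4 of the 5 and 3 of the 8 windows were higher in vivo, and with icLASER 2 and 3. The lowest window had -0.203 and -0.164 with icSHAPE, and -0.210 and -0.217 with icLASER, in the same order. With so few windows, how the parts compare at this content cannot be settled. Within the remainder the differences were also taken by G and C content. With icLASER they were -0.106 below 50%, -0.108 from 50% to 60%, -0.0381 from 60% to 70% and -0.0540 from 70% to 80%. The only window of at least 80% had -0.0826, where the expansion segments had 0.0979. With icSHAPE they were -0.0583, -0.0704, -0.0778, -0.00942 and 0.0210, against 0.0913 in the expansion segments of at least 80%. In other transcripts, over windows of 50 nucleotides the mean icLASER difference was -0.00370 in 1923 windows with at least 80% G and C and 0.00184 in 85595 with less than 50%. With icSHAPE it was 0.0221 in 1650 windows and 0.0276 in 73228. Scores are scaled within each transcript, so these windows cannot be set directly against those of 28S rRNA. The part of G and C content in the differences was not tested.

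The bases themselves differed by reagent. With icSHAPE, the mean score of A over the molecule was 0.283 in vitro and 0.161 in vivo, that of U 0.218 and 0.170, that of G 0.144 and 0.181, and that of C 0.0974 and 0.15. With icLASER, G stood highest, at 0.294 in vitro and 0.218 in vivo, and A had 0.133 and 0.0713. C, which lacks the purine C8 that NAz-N3 reacts with, had 0.0581 in vitro and 0.133 in vivo. That higher value of C in vivo lay in the expansion segments, where C had 0.0659 in vitro and 0.186 in vivo, whereas C of the remainder had 0.0467 and 0.0558. G of the expansion segments had 0.295 and 0.327 with icLASER, and G of the remainder 0.292 and 0.108. In the expansion segments U had 0.0908 in vitro and 0.174 in vivo with icLASER, and A had 0.159 and 0.169. With icSHAPE, A of the expansion segments had 0.181 in vitro and 0.170 in vivo, so A was not higher there, while C, G and U were. The base that follows also went with the score. Nucleotides before an A had a mean icSHAPE score of 0.370 in vitro and those before a C 0.0756, a wider gap than between the scored bases. Whether scores sit 1 nucleotide from the modified base was not tested.

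The expansion segments were higher in vivo with each base given equal weight as well, by 0.0578 with icSHAPE and 0.0613 with icLASER. Their icLASER differences were 0.120 at C and 0.0834 at U, which lack the purine C8, against 0.0318 at G and 0.00954 at A. Equal weight counts C and U as much as A and G, so it does not show a gain of that size at purines. With equal weight for each base the remainder was lower, with -0.0618 for icSHAPE and -0.0727 for icLASER. The median differences were smaller, 0.0120 and 0.0140 in the expansion segments and -0.00900 and -0.0220 in the remainder, since many nucleotides scored near 0 in both conditions. Of the nucleotides of the expansion segments, 47.0% scored exactly 0 with icSHAPE in vitro and 15.8% in vivo, and 33.7% and 9.54% with icLASER. In the remainder 20.2% scored 0 with icSHAPE in vitro and 6.61% in vivo, and 21.4% and 26.7% with icLASER. With icSHAPE the share at 0 was thus lower in vivo in both parts.

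The stretches of 25 nucleotides with the highest and the lowest mean difference show where these sums come from. They were picked for their size, so their values are a description. Capitals mark nucleotides that differed by at least 0.25 in the direction named, 5′ to 3′, on the plus strand of GRCh38.
Highest with icSHAPE, ES27, chrUn_GL000220v1:116497-116521: ccggcggcgGCCCGCCGcGGGGCCC
Second highest with icSHAPE, ES27, chrUn_GL000220v1:116734-116758: guCgGGcGGcGGCGGucGGcgggCG
Highest with icLASER, ES27, chrUn_GL000220v1:116805-116829: CCGCCCCCCGUUcCCCCCUCCUCCU
Second highest with icLASER, ES15, chrUn_GL000220v1:115467-115491: GCGCGCGCGCGCGCgugUgGUGUGC
Lowest with icSHAPE, domain V, chrUn_GL000220v1:117240-117264: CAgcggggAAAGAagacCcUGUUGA
Second lowest with icSHAPE, domain II, chrUn_GL000220v1:115685-115709: cgcagGUGCAgAUcUuGGugGUAGU
Lowest with icLASER, ES39, chrUn_GL000220v1:118215-118239: GUGcgGAGUGcccuucGucCuGGGA
Second lowest with icLASER, domain I, chrUn_GL000220v1:113387-113411: GCAUauuaGucagcgGaGGAGaaGA

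Simple repeats of C or of G and C led the stretches that were higher in cells with icLASER. The highest, nucleotides 3458 to 3482 in ES27, is nearly all pyrimidine and had a mean icLASER score of 0.0113 in vitro and 0.664 in vivo. The alternating stretch of ES15, nucleotides 2120 to 2144, had 0.251 and 0.875. A run of C at 3331 to 3355 in ES27 had 0.0764 and 0.611, and a GGC repeat at 848 to 872 in ES7 had 0.231 and 0.712. All 25 nucleotides of this last stretch lie in 25-mers that also occur in other transcripts, and those of the other 3 do not, with rRNA and rRNA pseudogenes left out. The icSHAPE difference over the same stretches was 0.0580, -0.0912, 0.115 and 0.210, so the ES15 stretch was not higher in cells with icSHAPE. The highest with icSHAPE, 3150 to 3174 in ES27, had a mean icSHAPE score of 0.0812 in vitro and 0.581 in vivo, and an icLASER difference of -0.0974. The others were 3387 to 3411 in ES27 with an icSHAPE difference of 0.413, 615 to 639 in ES7 with 0.371, and 1694 to 1718 in the remainder of domain II with 0.328.

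The stretches that were lower in cells lay in the remainder, apart from 1 in ES39. With icSHAPE they were 3893 to 3917, at ring strand 1 of the peptidyl transferase centre, with a mean of 0.512 in vitro and 0.139 in vivo, and 2338 to 2362 with 0.602 and 0.233. The stretch 2379 to 2403, across the end of domain II, had 0.506 and 0.163, and 2789 to 2813 in domain III had 0.493 and 0.152. With icLASER, 4868 to 4892 in ES39 had 0.533 and 0.152. The other 3 lay in domain I: 40 to 64 with 0.361 in vitro and 0.00444 in vivo, 277 to 301 with 0.319 and 0.0156, and 332 to 356 with 0.335 and 0.0373. Of these, 332 to 356 also had an icSHAPE difference of -0.299 and 40 to 64 one of -0.269.

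The peptidyl transferase ring, 86 nucleotides in 4 strands, had a lower mean in cells with both reagents. The ring had a mean of 0.258 in vitro and 0.181 in vivo with icSHAPE, and of 0.173 and 0.0873 with icLASER. Its differences, -0.0771 and -0.0852, were close to those of the whole remainder of domain V, -0.0716 and -0.0950. With icSHAPE the differences were -0.350, -0.0535 and -0.0482 in strands 1 to 3 and 0.0715 in strand 4, so strands 2 to 4 nearly cancelled. Without ring strand 1, the icSHAPE difference was 0.000299 and the icLASER difference -0.131. Over the whole ring 41 nucleotides were higher and 44 lower with icSHAPE, and 14 higher and 64 lower with icLASER. Of the 500 nucleotides in the remainder of domain V, 200 were higher and 283 lower with icSHAPE, and 98 and 337 with icLASER. Ring strand 1 had a mean icSHAPE score of 0.511 in vitro and 0.161 in vivo, and a mean icLASER score of 0.166 and 0.243, so the reagents went opposite ways. There A3901, A3902, A3903 and G3904 all scored 1 with icSHAPE in vitro and 0.353, 0.161, 0.103 and 0.146 in vivo. With icLASER, G3904 had 0.424 in vitro and 0.711 in vivo, and G3913 had 0.359 and 0.780. G3907 between them was reactive in all 4 profiles, at 1 and 0.910 with icSHAPE and 0.914 and 1 with icLASER.

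Ring strands 2 to 4 were lower in cells with icLASER. Their icLASER means were 0.0974 in vitro and 0.0185 in vivo in strand 2, 0.209 and 0.0688 in strand 3, and 0.202 and 0.0414 in strand 4. In strand 3, G4440 had 1 in vitro and 0.058 in vivo and G4448 had 1 and 0.114, while G4451, 3 nucleotides on, had 1 and 0.929. In strand 4, G4529, G4534 and G4538 had 1, 0.882 and 1 in vitro with icLASER and 0.138, 0.187 and 0.278 in vivo. With icSHAPE strand 4 went the other way, from a mean of 0.140 in vitro to 0.212 in vivo. U4530 and U4531 there had 0.996 and 0.804 in vitro and 1 for both in vivo, and G4528 had 0 in vitro and 0.560 in vivo. The icSHAPE means were 0.196 in vitro and 0.143 in vivo in strand 2, and 0.242 and 0.193 in strand 3. In strand 2, A4394 had icSHAPE scores of 0.960 and 0.376, and A4396 had 0.995 and 0.773.

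The loops that hold the tRNA ends have 9 nucleotides each, so their shares of reactive nucleotides rest on very few of them. In the P loop the share was 11.1% with icSHAPE in vitro and 22.2% in vivo, against 11.0% and 11.9% over all transcripts. With icLASER it was 11.1% in vitro and 0% in vivo, against 11.0% and 11.1%. In the A loop no nucleotide reached 0.5 in any profile, and its means were 0.0110 and 0.0680 with icSHAPE and 0.0566 and 0.00300 with icLASER, in vitro and in vivo. In the P loop, U4202 had an icSHAPE score of 1 in both conditions. G4201 beside it had 0.195 in vitro and 0.550 in vivo with icSHAPE, and 0.732 and 0.083 with icLASER. All 9 nucleotides of the P loop had a lower icLASER score in vivo than in vitro, as had 337 of 500 in the remainder of domain V.

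The sarcin-ricin loop had 2 reactive nucleotides, next to each other. Both were reactive with icSHAPE in vitro, which is 10.5% of the loop and near the 11.0% over all transcripts. G4600 had an icSHAPE score of 1 in vitro and 0.395 in vivo and an icLASER score of 0.927 and 0.123. U4601 had 1 and 0.544 with icSHAPE and 0.152 and 0.033 with icLASER. At the other 17 nucleotides no score passed 0.235 in any profile. Over all 19 nucleotides icSHAPE averaged 0.149 in vitro and 0.0811 in vivo, and icLASER 0.105 and 0.0116. The icSHAPE difference rested on G4600 and U4601, as its median over the loop was 0.00200. The icLASER score was lower in vivo at 15 of the 19 nucleotides, higher at 1 and equal at 3. The whole remainder of domain VI was much the same, with 190 of 233 nucleotides lower, 14 higher and 29 equal.

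Helix 69 and the GTPase-associated centre had low icLASER scores in cells too, as had the remainder of their domains. The in vivo icLASER mean was 0.0463 in the remainder of domain IV, which holds helix 69. It was 0.0715 in that of domain II, which holds the centre. The mean icLASER score of helix 69 was 0.138 in vitro and 0.0162 in vivo, with G3765 at 1 and 0.121 and A3759 at 0.531 and 0.197. Its icSHAPE mean was 0.133 and 0.145. A3759 had 0.406 and 0.586 with icSHAPE, while U3772 had 0.675 and 0.491 and U3773 0.735 and 0.251. None of its 25 nucleotides was higher by 0.25 with icSHAPE, against 12.4% over all transcripts. With icSHAPE 2 were lower (8%), near the 9.10% over all transcripts. The GTPase-associated centre, nucleotides 1945 to 2018, had an icLASER mean of 0.0670 in vitro and 0.0188 in vivo and an icSHAPE mean of 0.165 and 0.116. Within it, G1961 had 1 and 0.126 with icLASER and 1 and 0.634 with icSHAPE. With icSHAPE, A2009 had 1 in vitro and 0.177 in vivo, G1985 0.864 and 0.301, G1975 0.549 and 0.039, and A1958 0.668 and 0.462. The other 4 of its 9 reactive nucleotides had higher icSHAPE scores in cells, U1959 with 0.835 and 1, G1952 with 0.299 and 0.615, G1955 with 0.199 and 0.573, and U1957 with 0.354 and 0.537. The centre's reactive share was 8.11% with icSHAPE in vitro and 6.76% in vivo, against 11.0% and 11.9% over all transcripts. With icLASER it was 1.35% and 0%, against 11.0% and 11.1%.

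The reagents were compared with each other and with a predicted fold. Across the 5034 nucleotides, icSHAPE and icLASER scores had a Pearson correlation of 0.409 in vitro and 0.485 in vivo. In the remainder it was 0.464 and 0.393, and in the expansion segments 0.387 and 0.556. These are descriptions over neighbouring nucleotides of 1 molecule, which share libraries, depth and base composition. In the remainder in vivo, 32 nucleotides were reactive with both reagents, which is 14.7% of the 218 reactive with icSHAPE and 42.1% of the 76 reactive with icLASER. In the expansion segments in vivo 169 were reactive with both, 57.3% of the 295 and 42.6% of the 397. The parts differ in their reactive shares in vivo, 17.5% against 2.74% in the remainder with icLASER, and 13.0% against 7.87% with icSHAPE. The overlap that unrelated calls would give, and the share over all transcripts, were not computed. These overlaps are therefore only a description.

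Pairing predicted from the sequence alone with RNAplfold called 1592 nucleotides unpaired, and these scored above the paired ones most clearly with icSHAPE in vitro. There the mean was 0.277 at unpaired and 0.108 at paired nucleotides, and in vivo it was 0.212 and 0.144. With icLASER it was 0.187 and 0.145 in vitro, and 0.132 and 0.152 in vivo. In the expansion segments in vivo the icLASER means were 0.240 at unpaired and 0.241 at paired nucleotides. In the remainder the unpaired nucleotides had the larger differences between conditions, -0.129 with icSHAPE and -0.113 with icLASER, against -0.0119 and -0.0653 at the paired ones. In the expansion segments it was the paired nucleotides, with 0.0854 and 0.0804 against 0.0595 and 0.0557. The prediction is local and knows neither proteins nor long-range contacts.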

How the data were processed

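icSHAPE (NAI-N3) and icLASER (NAz-N3) libraries were made from K562 cells and refolded K562 RNA. The authors aligned reads to the Ensembl GRCh38 transcriptome and ran the icSHAPE pipeline; the submitters' processing notes also name Trimmomatic and Bowtie2. The values they deposited are 1 RPKM per transcript and, per nucleotide, an enrichment score from 0 to 1, with replicates and controls pooled into 4 profiles. Read counts are not analysed here, which leaves depth unknown.

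The 28S row was read as deposited and given the sequence of RNA28SN5 by its length. Domains, expansion segments and elements were delimited by landmarks of 9 nucleotides, each found once. Means, differences (in vivo minus in vitro), counts past 0.25 and shares with a score of at least 0.5 were computed with Python 3.11.15 and NumPy 2.4.6 and drawn with matplotlib 3.10.9. Segment and base means were tested on simulated data. RNAplfold (ViennaRNA 2.7.2, window 200, span 150) gave pairing, with a nucleotide called unpaired at a probability of 0.5 or more. Shared 25-mers, as exact matches, were sought in GENCODE release 44 transcripts other than rRNA and rRNA pseudogenes. No test was run, since groups hold 1 profile each and nucleotides are not replicates.

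Segments, elements and limits were chosen with earlier results of these data known. The text names the 6 domains, 7 expansion segments, the listed elements with their nucleotides at 0.5 or more in any profile, and for each reagent the 4 highest and 4 lowest stretches of 25 nucleotides that do not overlap. Single windows of 50 nucleotides, and loop nucleotides under 0.5, were named after their values were seen. Alternatives were the median, equal weight for each base, division by a profile's own mean, moved edges or scores, other limits, and leaving out shared 25-mers.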

Additional observations from a re-analysis of the deposited data

Results flagged for a closer look

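In 6 named parts of 28S rRNA the icSHAPE and the icLASER difference (in vivo minus in vitro) had opposite signs, each at least 0.04 in size. The difference between the reagents was not tested, since each comes from 1 pooled profile per condition. The icSHAPE minus icLASER value was 0.138 for domain VI (0.0438 and -0.0943) and 0.130 for ES39 within it (0.0821 and -0.0474). It was -0.427 for ring strand 1 of the peptidyl transferase centre (-0.350 and 0.0771), the only part of the 6 that was lower in cells with icSHAPE and higher with icLASER. It was 0.232 for ring strand 4 (0.0715 and -0.160), 0.214 for the P loop (0.0852 and -0.129) and 0.111 for the A loop (0.0570 and -0.0536). The A loop and the P loop are 9 nucleotides each, and no nucleotide of the A loop reached a score of 0.5.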

How the results depend on the processing

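No paired analysis was possible because the replicates are pooled in each profile, and leaving out replicates could not be run for the same reason. With no error to judge by, a value counted as moved where it changed sign, or changed by 0.02 or more and by over 1.5 times, and as turned round where a value of at least 0.02 in size changed sign. Of 110 alternative values for 30 results, 78 did not move by this measure, 29 did and 3 turned round. The 3 that turned were with icSHAPE: domain IV with equal weight for each base, -0.00278, the sarcin-ricin loop by its median, 0.00200, and the peptidyl transferase ring without ring strand 1, 0.000299. With icLASER the ring without this strand had -0.131. Equal weight for each base gave -0.0201 for the whole molecule and -0.0161 for domain I with icSHAPE, and -0.0105 for domain I and 0.0211 for domain IV with icLASER. Division by a profile's own mean gives 0 for the whole molecule by construction, and it gave 0.000563 for domain II with icLASER. The medians were nearer 0 because most scores are low. With icSHAPE they were -0.0130, 0.00400, 0 and 0.00800 for domains III to VI, -0.00550 for the peptidyl transferase ring, and 0.0120 and -0.00900 for the expansion segments and the remainder. With icLASER they were -0.00250, 0.00500, -0.0100 and -0.0350 for domains III to VI, -0.0210 for the ring, -0.0310 for the sarcin-ricin loop, and 0.0140 and -0.0220 for the expansion segments and the remainder. With 5 more nucleotides on each side the sarcin-ricin loop had -0.0376 with icSHAPE. Counts followed the limit on the difference. At 0.15, 731 nucleotides were higher and 759 lower with icSHAPE, and 784 lower with icLASER. At 0.5, 230 were higher and 222 lower with icSHAPE, and 210 and 235 with icLASER. The expansion segments minus the remainder kept its sign in all 4 profiles under the 4 alternatives tried, 1 of which, leaving out shared 25-mers, was chosen after seeing the data, as were leaving out ring strand 1 and the alternatives for the expansion segments and the remainder on their own. The edges of the segments, the pooling and the unknown depth limit all values.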

Other observations

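Few stretches of 28S rRNA had an exact match in the other transcripts searched, from which rRNA and rRNA pseudogenes were left out. Of its 5046 25-mers, 125 occur in these GENCODE transcripts, from 69 genes, and they cover 270 nucleotides, 105 of them in expansion segments. Matches to rRNA pseudogenes and inexact matches were not sought. Without these nucleotides the in vivo minus in vitro difference of the expansion segments was 0.0743 with icSHAPE and 0.0684 with icLASER, and that of the remainder -0.0582 and -0.0859, close to the values over all nucleotides.

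Windows with little signal were not rare in the expansion segments in vitro. A mean under 0.05 was found in 7 of 39 with icSHAPE and in 10 with icLASER, against 1 and 3 in vivo. The window with the lowest mean was the same in each profile, and the depth there is unknown. Nucleotides 557 to 606 in ES7, with 86% G and C, had a mean score of 0.00258 with icSHAPE in vitro, 0.0329 with icSHAPE in vivo, 0.00110 with icLASER in vitro and 0.00840 with icLASER in vivo, the lowest of the 39 windows in each profile. In contrast, nucleotides 3157 to 3206 in ES27 had the highest icLASER mean of these windows in vitro, 0.614, and kept 0.478 in vivo.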
